A study of Homo sapiens with 6 samples.

Results

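The chromosomal passenger complex, the proliferation antigen Ki-67 and the type II topoisomerases were followed at the mRNA level through 7 genes, *AURKB*, *BIRC5*, *INCENP*, *CDCA8*, *MKI67*, *TOP2A* and *TOP2B*. They were taken by symbol, matched to Ensembl identifiers, from a table of 60656 genes, and each of the 7 was found once. The libraries came from parental ZR-75-1 cells, an oestrogen receptor-positive human breast cancer line with no engineered change to *RB1*, grown in 1 medium containing fetal bovine serum. Of the 6 libraries, 3 were from cells given DMSO, the solvent, and 3 from cells given 500 nM abemaciclib, an inhibitor of the kinases CDK4 and CDK6, each for 4 days. The comparison asked how expression of these genes differed when CDK4/6 had been inhibited. Cells lacking *RB1* are not part of this comparison.

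The chromosomal passenger complex is the enzyme assembly that corrects faulty attachments between chromosomes and the spindle and then helps to complete cytokinesis. Its kinase is Aurora B, encoded by *AURKB*. *INCENP* encodes the scaffold that binds and activates the kinase, and *BIRC5* (survivin) and *CDCA8* (borealin) encode the subunits that, with the amino-terminal end of INCENP, dock it on the inner centromere and later on the central spindle. *MKI67* encodes Ki-67, a large protein that coats mitotic chromosomes and whose immunostaining is widely used as a measure of proliferation in breast cancer. *TOP2A* and *TOP2B* encode the paralogous enzymes that pass one DNA duplex through another. Topoisomerase IIα is made mainly in dividing cells and untangles sister chromatids, whereas topoisomerase IIβ is also made in non-dividing cells.

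Many genes of late cell cycle phases carry in their promoters a cell cycle genes homology region (CHR, with the letters TTTGAA) and CCAAT boxes. Windows of 250 bases before the start site, from RefSeq on GRCh38.p14, were therefore searched for both on either strand. A window was held for 6 of the 7 genes, *BIRC5* being the one without, and where a gene had more than 1 start the start nearest that of the GENCODE gene was taken. The windows of *MKI67* and *TOP2A*, both of which fell with abemaciclib, are shown beside that of *TOP2B*, which did not pass the test, to let the paralogues be compared. Capitals mark CHR and CCAAT matches (on the reverse strand these read TTCAAA and ATTGG), and the *TOP2B* window is shown without its last 32 bases, which are annotated as exon.
MKI67, chr10:128126424-128126673, minus strand: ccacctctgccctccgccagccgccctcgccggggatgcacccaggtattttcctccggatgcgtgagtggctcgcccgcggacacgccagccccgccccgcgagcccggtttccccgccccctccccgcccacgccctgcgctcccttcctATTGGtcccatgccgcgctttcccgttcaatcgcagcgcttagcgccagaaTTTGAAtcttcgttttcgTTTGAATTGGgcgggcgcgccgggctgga
TOP2A, chr17:40417897-40418146, minus strand: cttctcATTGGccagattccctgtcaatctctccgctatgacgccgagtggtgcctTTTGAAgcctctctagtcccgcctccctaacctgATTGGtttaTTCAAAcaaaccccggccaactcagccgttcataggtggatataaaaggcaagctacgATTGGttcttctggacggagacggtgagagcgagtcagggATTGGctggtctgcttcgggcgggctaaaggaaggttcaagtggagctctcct
TOP2B, chr3:25664940-25665157, minus strand: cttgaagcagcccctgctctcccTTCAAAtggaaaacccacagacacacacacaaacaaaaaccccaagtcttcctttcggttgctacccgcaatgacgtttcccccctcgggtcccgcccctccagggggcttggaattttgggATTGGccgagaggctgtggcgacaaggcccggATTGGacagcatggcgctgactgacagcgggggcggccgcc

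A CHR match was present in 5 of the 6 windows, those of *INCENP*, *CDCA8*, *MKI67*, *TOP2A* and *TOP2B*, against 13.3% of all 35116 windows of this length. *AURKB* held none. A CCAAT box was present in all 6 windows, against 32.0% of all windows, with 4 matches in *TOP2A*, 3 in *INCENP* and in *CDCA8*, 2 in *MKI67* and in *TOP2B* and 1 in *AURKB*. In *MKI67* and *CDCA8* the CHR overlapped a reversed CCAAT box in a run of 10 letters, TTTGAATTGG, a form that was noticed in these windows and then counted in 0.057% of all windows. The 30 bases around that run in *CDCA8* and those around the CHR of *INCENP* are shown because both matches lie close to the RefSeq start.
CDCA8, chr1:37692483-37692512, plus strand: gactgtggagTTTGAATTGGgtggcggttg
INCENP, chr11:62123981-62124010, plus strand: ggATTGGctgagccttcagtTTTGAAaatc
Counted from the RefSeq start, the CHR of *CDCA8* began 23 bases before it and that of *INCENP* 10 bases before it. All 6 letters of both lie in annotated GENCODE exons and inside the GENCODE span of their gene, so they come after the first base that GENCODE counts as transcribed. The *AURKB* window lies wholly inside the GENCODE span of *AURKB*, with 5 of its bases exonic, so the bases before the GENCODE start were not searched. The matches of *MKI67* began at 47 and 29 bases, those of *TOP2A* at 194 and 151 bases and that of *TOP2B* at 227 bases, all outside annotated exons. The E2F site letters TTTCCCGC, TTTCGCGC, TTTGCCGC and TTTGGCGC had 0 matches in the 6 windows and were present in 2.79% of all windows. Both paralogues of topoisomerase II held CHR and CCAAT letters. A match is a description of letters and not of a bound site.

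Library totals ranged from 3317860 to 4013156 counts. Reads came from the 3′ end regions of transcripts, which makes the counts largely independent of transcript length. Levels are given as CPM, the count relative to a library total scaled by the TMM method. A count of 3, taken as the limit that 0 counts allow, corresponded to 0.740 to 0.909 CPM. Luminal character, though not the identity of the line, was checked with 6 luminal genes, which were expressed in every library. Of these, *ESR1*, the oestrogen receptor gene, and *KRT19* were higher with abemaciclib (log2 fold changes 0.83 and 0.45) and *KRT18* was lower (−0.34). Of the others 3 did not pass, and 7 of 8 markers of white cells, fibroblasts, endothelium and basal epithelium were at 0 in all libraries. The eighth, the collagen gene *COL1A1*, had 35 to 57 counts per library. All 7 genes passed the filter on low counts, *AURKB* through its DMSO libraries alone. Annotated exons of no other gene overlapped the last 500 bases of any of the 7. The pseudogenes *AURKBP1* and *MKI67P1* had 0 counts in all libraries.

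Abemaciclib lowered 6 of the 7 genes and raised 0 at an adjusted *P* under 0.05 in edgeR, with the quasi-likelihood test and adjustment over 10863 genes, and *TOP2B* was the exception. Among all genes tested 13.3% were lower, 12.5% were higher and 25.7% passed in either direction. None of the 7 was higher at an unadjusted *P* under 0.05 or in DESeq2 either (0 in both). Every DMSO library lay above every abemaciclib library for the same 6 genes, an arrangement found for 20.1% of all genes tested, while 39.1% had groups that did not overlap in either order. The sizes of the falls were unequal. *AURKB* and *MKI67* were at about 1% of their DMSO level, *TOP2A* at 5.07% and *BIRC5* at 10.1%, while *INCENP* kept 30.1% and *CDCA8* 39.2%. The median log2 fold change of the 7 genes was −3.32, beside −0.00 over all genes tested. As the RNA came from whole cultures, fewer dividing cells and less mRNA per cell cannot be told apart in any of these values.

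**Figure D1:**
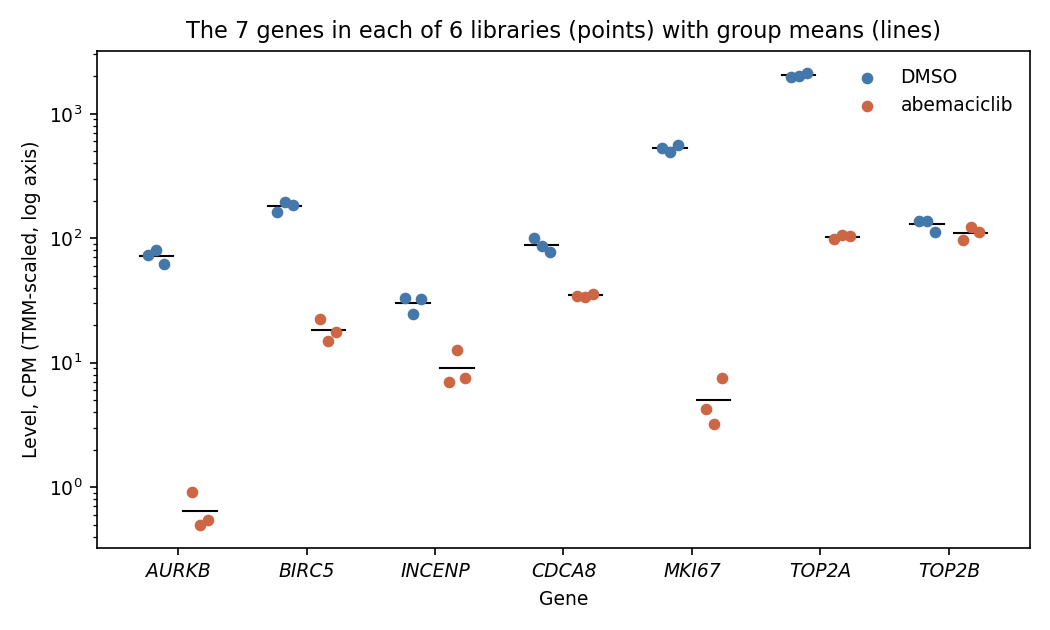
Level of each gene in CPM (log axis) in the 3 DMSO and 3 abemaciclib libraries (points), with the group means (lines). The groups are apart for 6 genes and overlap for *TOP2B*, whose values lie between 95.9 and 138 CPM.

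*AURKB* lies on the minus strand of chromosome 17 (GRCh38, 8204733 to 8210600). Its DMSO libraries held 251, 272 and 206 counts, or 72.8, 80.8 and 62.4 CPM. Its abemaciclib libraries held 3, 2 and 2 counts, or 0.908, 0.493 and 0.540 CPM. The kinase transcript was thus near the limit of detection in every treated library, none of which exceeded 3 counts. Summed over libraries, 7 counts against 729 gave a level of 0.878% of DMSO, with a 95% exact binomial interval for counting error of 0.352% to 1.82%. This was a 114-fold lower level (55.0 to 284 by the same interval). The fitted log2 fold change, which depends on the prior count at such levels, was −6.75 (standard error 0.30, adjusted *P* = 1.96e-16 from edgeR). It ranked as the 3rd largest fall of the 10863 genes, a place that rests on these 7 counts. *AURKB* entered the test through its DMSO libraries alone, as did 625 of the genes tested, so its *P* and rank are given as description only.

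*BIRC5* spans 78214186 to 78225636 on the plus strand of the same chromosome and had the highest level of the 4 subunit genes with DMSO. Its levels were 163, 196 and 184 CPM with DMSO. With abemaciclib they were 22.4, 14.8 and 17.6 CPM, all far below the lowest DMSO library. The means were 180.9 ± 16.6 CPM and 18.3 ± 3.84 CPM (SD, n = 3 in each group), a 9.91-fold difference. In edgeR the adjusted *P* was 1.99e-16, for a log2 fold change of −3.32 with a standard error of 0.15.

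*INCENP*, the scaffold gene, lies on the plus strand of chromosome 11 (62123998 to 62153169) and was the least abundant of the 4 with DMSO, at 33.1, 24.7 and 32.4 CPM. With abemaciclib it was at 6.96, 12.6 and 7.57 CPM. Replicate 2 was the highest of the treated libraries and still below every DMSO library. The fall was 3.33-fold (log2 fold change −1.71, standard error 0.25, adjusted *P* = 6.16e-06 from edgeR), and without abemaciclib replicate 2 the log2 fold change was −2.04.

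*CDCA8*, which encodes borealin, lies on the plus strand of chromosome 1 (37692481 to 37709719). DMSO libraries had 101, 86.1 and 78.1 CPM, and abemaciclib libraries had 34.5, 33.8 and 35.7 CPM. The treated libraries were close to each other and well apart from the DMSO libraries. *CDCA8* fell the least of the passenger genes, by 2.55-fold (log2 fold change −1.35, standard error 0.15, adjusted *P* = 3.01e-08 from edgeR).

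**Figure D2:**
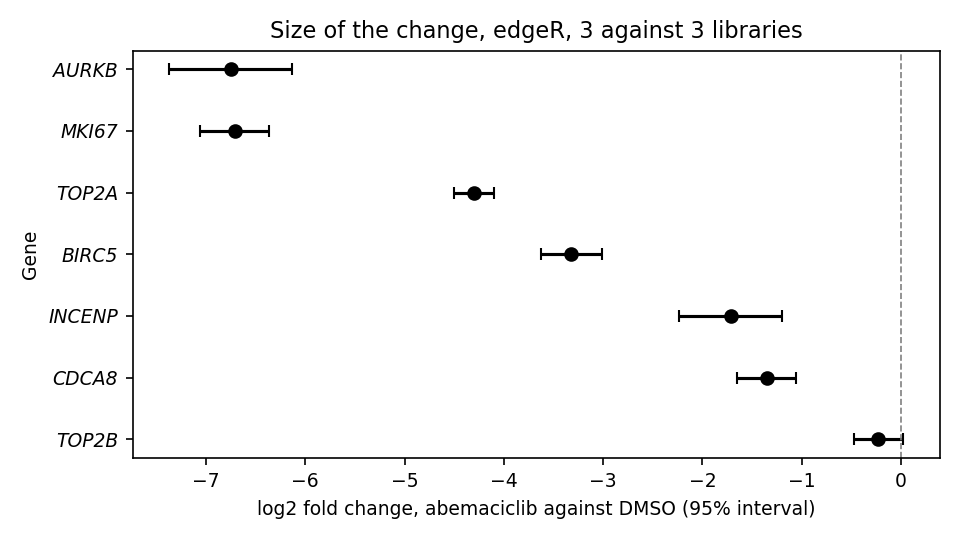
Log2 fold change of each gene, abemaciclib against DMSO, from edgeR with 3 libraries a group, with 95% intervals (bars). *AURKB* and *MKI67* lie near −6.7, *CDCA8* at −1.35, and the interval of *TOP2B* is the only one that includes 0.

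Because the subunits fell by different amounts, the make-up of their pooled transcripts differed between the groups. The 4 genes together had 357 to 387 CPM with DMSO and 61.3 to 64.7 CPM with abemaciclib, so the treated libraries differed little in the sum. Of the summed counts, *AURKB* made up 19.3% ± 1.71 with DMSO and 1.03% ± 0.327 with abemaciclib (SD, n = 3 in each group). The share with abemaciclib rests on 3, 2 and 2 counts of *AURKB*, so its SD says little about the spread between cultures. *BIRC5* made up 48.7% ± 4.05 and 29.1% ± 5.30 in the same order. The share of *CDCA8* went the other way, from 23.8% ± 3.02 to 55.4% ± 2.50, and that of *INCENP* was 8.13% ± 1.53 and 14.5% ± 5.18. Borealin transcripts were thus the most numerous of the 4 in every abemaciclib library, the place held by survivin transcripts in every DMSO library. In the treated libraries the shares of *INCENP* were 10.7%, 20.4% and 12.3%, replicate 2 being the highest.

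**Figure D3:**
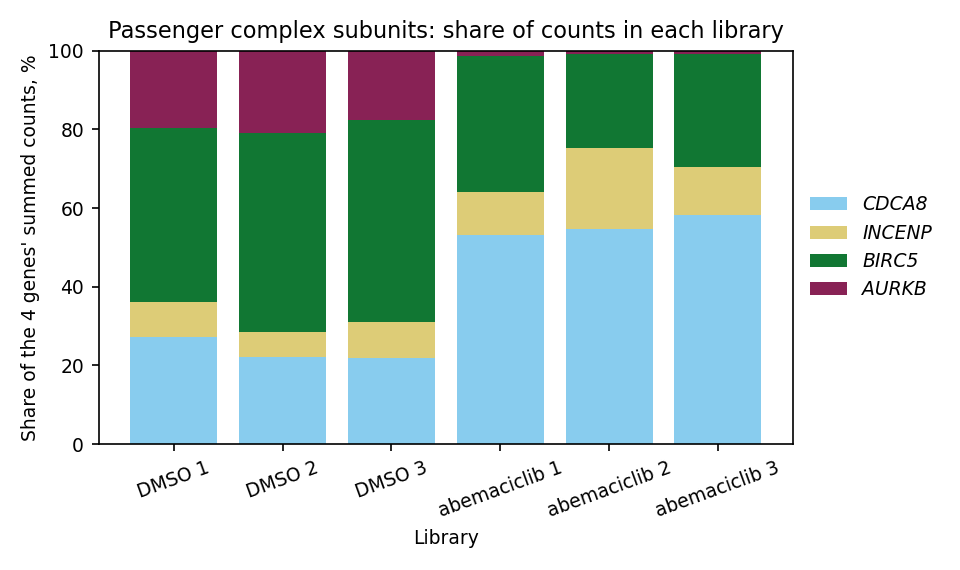
Share of the summed counts of the 4 passenger complex genes held by each, in percent, for each library (bars). *AURKB* holds between 17.5% and 20.9% of the counts with DMSO and between 0.800% and 1.40% with abemaciclib, and *CDCA8* holds between 21.9% and 27.3% and then between 53.3% and 58.1%.

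Ratios to the scaffold within each library need no scaling between libraries. The groups did not overlap in the ratios of *AURKB* and of *BIRC5* to *INCENP*, but did in that of *CDCA8*. *AURKB* had a log2 ratio to *INCENP* of 1.14, 1.71 and 0.94 with DMSO. With abemaciclib it was −2.75, −4.36 and −3.51, values that rest on 3, 2 and 2 kinase counts and on the 0.5 added to each count. Kinase counts therefore exceeded scaffold counts in every DMSO library and were below them in every treated library. The difference of the means was −4.80, from 2.40 kinase counts per scaffold count to 0.0859. *BIRC5* to *INCENP* differed by −1.56 on the log2 scale, also without overlap of the groups. *CDCA8* to *INCENP* differed by 0.42 and the groups overlapped, so these falls were not separated by the ratio. For the 5 ratios examined in all, the exact two-sided permutation test gave *P* = 0.1 for those without overlap, the smallest that 3 libraries against 3 allow, and *P* = 0.3 for *CDCA8* to *INCENP* (adjusted over the 5 ratios, 0.125 and 0.3).

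*MKI67* is encoded on the minus strand of chromosome 10, between 128096659 and 128126423. Its DMSO libraries held 1816, 1663 and 1838 counts, or 527, 494 and 557 CPM, which placed its mean at the 97.8th percentile of the genes tested. The abemaciclib libraries held 14, 13 and 28 counts, or 4.24, 3.21 and 7.57 CPM, at the 12.1th percentile. The Ki-67 transcript thus moved from among the most abundant to among the scarcest of the tested genes, and replicate 3 was the highest of the treated libraries. The level with abemaciclib was 0.951% of that with DMSO (105-fold lower), the 4th largest fall among the genes tested. Summed counts gave 0.946%, with a counting interval of 0.712% to 1.23%, which overlaps that of *AURKB*.

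*TOP2A* spans 40388525 to 40417896 on the minus strand of chromosome 17 and was the most abundant of the 7 genes with DMSO. Its libraries had 1963, 2029 and 2112 CPM with DMSO, a level at the 99.5th percentile of tested genes. With abemaciclib they had 99.2, 106 and 104 CPM, and the spread within each group was small against the distance between them. The means were 2035 ± 75.0 CPM and 103.1 ± 3.52 CPM (SD, n = 3 in each group), a 19.7-fold fall. The log2 fold change was −4.30 (standard error 0.10), and its adjusted *P* of 7.93e-23 in edgeR was the smallest of the 7. Despite the fall, *TOP2A* at the 84.6th percentile remained well represented in treated cells, unlike *MKI67*.

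The paralogue *TOP2B*, on the minus strand of chromosome 3 (25597978 to 25664909), had 138, 136 and 113 CPM with DMSO. With abemaciclib it had 95.9, 123 and 112 CPM. The groups overlapped, since the lowest DMSO library was below the highest abemaciclib library. The log2 fold change of −0.23 (95% interval −0.47 to 0.02) did not pass the threshold (adjusted *P* = 0.182 from edgeR, 0.0728 before adjustment). A fall of the size seen for any of the other 6 genes lies outside that interval.

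The paralogues therefore differed in their balance within each library. The log2 ratio of *TOP2A* to *TOP2B* counts was 3.83, 3.89 and 4.22 with DMSO, or 15.8 *TOP2A* counts for each *TOP2B* count on average. With abemaciclib it was 0.05, −0.21 and −0.10, so the pair had nearly equal counts in each treated library (0.940 on average). The difference was −4.07 (*P* = 0.1 in the two-sided exact permutation test, which is its lower limit). *MKI67* fell further than *TOP2A*: its log2 ratio to *TOP2A* was −1.90, −2.04 and −1.92 with DMSO and −4.50, −4.99 and −3.76 with abemaciclib, a difference of −2.47 (exact permutation test, two-sided, *P* = 0.1). Counts of *TOP2A* thus gave a smaller fall than those of *MKI67* in the same cultures.

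**Figure D4:**
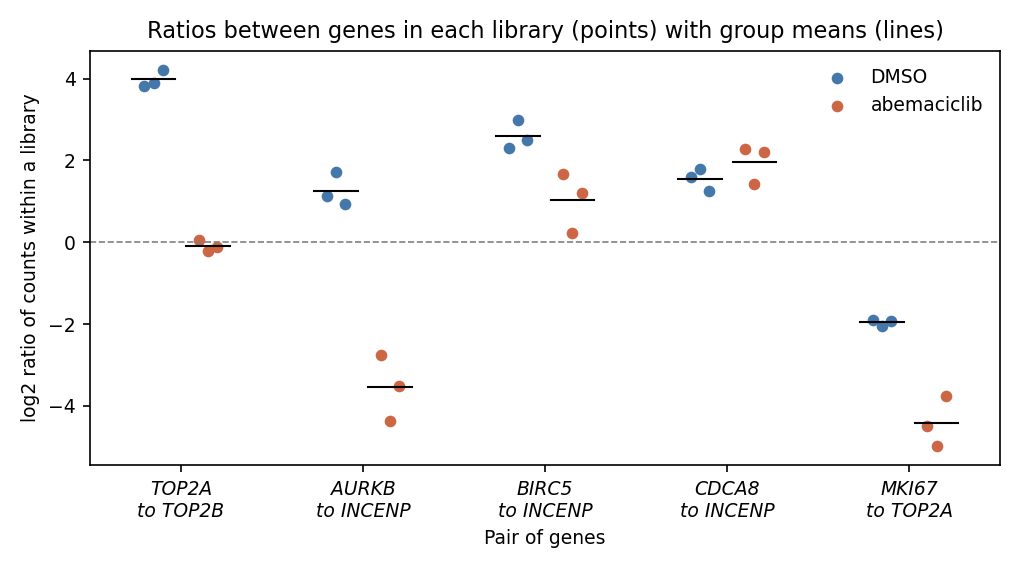
Log2 ratio of the counts of a pair of genes within each library (points), with group means (lines) and equality at 0 (dashed). The ratio of *TOP2A* to *TOP2B* lies between 3.83 and 4.22 with DMSO and near 0 with abemaciclib, and only *CDCA8* to *INCENP* overlaps between the groups.

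Genes that place or remove the complex were read from a list of 12, of which 10 were tested, with 4 lower and 0 higher. Of the 10, *KIF20A* passed the filter through its DMSO libraries alone, and with at least 10 counts required in every library 3 were lower. For this list, and for those that follow except where said, 0 genes were also higher at an unadjusted *P* under 0.05 in edgeR and in DESeq2. Over all genes tested 13.3% were lower and 12.5% higher, shares to be set beside the counts of this list and of those that follow. *KIF20A*, the kinesin that carries the complex to the central spindle, fell by 4.98 on the log2 scale (101, 105 and 95 counts with DMSO, and 3, 0 and 7 with abemaciclib). The log2 fold change of *KIF20A* had a 95% interval of −5.84 to −4.12 in edgeR. It was −4.35 without abemaciclib replicate 2 and −6.06 without abemaciclib replicate 3. *BUB1*, the kinase whose histone mark recruits the complex through shugoshin, fell by 2.18. *TTK*, a spindle checkpoint kinase, fell by 1.35 and *SGO1*, which encodes shugoshin 1, fell by 0.96. Its relative *SGO2*, at −0.46, did not pass (adjusted *P* = 0.0600 in edgeR). The other 5 tested, *CUL3*, *KLHL9*, *KLHL13* and *KLHL21* of the ubiquitin ligase that removes Aurora B from chromosomes and the export receptor gene *XPO1*, did not pass, and their log2 fold changes were between −0.50 and 0.55. The list's median was −0.48. The 3′ end of *KIF20A* overlaps *CDC23* on the opposite strand, which leaves its counts uncertain, as the use of strand in the counting is not stated. *HASPIN*, the kinase that marks histone H3 for survivin, had too few counts for the test, with 9, 13 and 8 with DMSO and 1, 1 and 0 with abemaciclib.

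Of 12 genes for substrates of Aurora B, all tested, 11 were lower and 0 higher (median log2 fold change −2.12), with 1 higher at an unadjusted *P* under 0.05 and 0 in DESeq2. *CENPA*, the centromeric histone H3 variant, had 55, 45 and 51 counts with DMSO and 0, 3 and 0 with abemaciclib. Its summed counts of 151 and 3 gave a 55.0-fold lower level, with a 95% counting interval of 18.5 to 269.8. The fitted log2 fold change of *CENPA* was −5.62, and it was −8.68 without abemaciclib replicate 2, which held the 3 counts. *NDC80*, the microtubule-binding kinetochore protein gene, fell by 4.86 and *KIF2C*, a microtubule depolymerase, fell by 3.63. *RACGAP1* and *KIF23*, which form centralspindlin, had log2 fold changes of −2.84 and −2.37. Kinetochore genes did not all fall alike, as *DSN1* fell by only 0.54 (adjusted *P* = 0.00902 from edgeR), a call lost without DMSO replicate 1. *CHMP4C*, which delays abscission, was the only one not to pass, at 0.54 on the log2 scale (adjusted *P* = 0.0606 in edgeR), and without abemaciclib replicate 3 it was higher at 0.70. Filtering acted on this list, since 4 of the 12 genes passed it through their DMSO libraries alone. These were *CENPA*, *NDC80*, *KIF2C* and *RACGAP1*, which had the 4 largest falls. The count of 11 and the median include them, so both are given as description only. With at least 10 counts required in every library 7 genes were lower.

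Of the sister kinase's list, 4 of 5 genes were tested, with 3 lower and 0 higher (median −1.78). *BORA* passed the filter through its DMSO libraries alone, and with at least 10 counts required in every library 2 were lower. *AURKA*, the spindle pole kinase Aurora A, fell by 1.64 and so by less than *AURKB*, from 117.5 ± 3.04 to 37.6 ± 4.55 CPM (SD, n = 3 in each group). *TPX2*, its activator on the spindle, fell by 2.53, and *BORA*, its cofactor, fell by 1.91, though the 3′ end of *BORA* overlaps *DIS3* on the opposite strand. *AJUBA* had a log2 fold change of −0.40 and did not pass. *AURKC*, the germ cell paralogue of Aurora B, had 0 to 2 counts per library.

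The other inhibitor of apoptosis genes, relatives of *BIRC5* by their BIR domains, gave 0 of 4 tested lower and 0 higher (median log2 fold change 0.20), with 0 in either direction at an unadjusted *P* under 0.05 and in DESeq2. Among all genes tested 13.3% were lower and 12.5% higher, so 0 of 4 does not set this family apart. *XIAP*, the caspase inhibitor, had 102.9 CPM with DMSO and 118.0 CPM with abemaciclib. Of the 6 family genes listed, *BIRC7* and *NAIP* were not tested. *BIRC3* had 11, 0 and 2 counts with DMSO and 19, 2 and 14 with abemaciclib, and it was higher when DMSO replicate 1 was left out.

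The layer that Ki-67 organizes around mitotic chromosomes was read from 9 genes, all tested, of which 4 were lower and 0 higher (median −0.30). *KIF15*, a kinesin that binds Ki-67, fell by 2.35 and *CDCA2*, which recruits a protein phosphatase to chromatin, fell by 1.54. *NPM1* and *NCL*, nucleolar proteins that relocate to chromosomes in mitosis, had log2 fold changes of −0.42 and −0.24, and the call of *NCL* (adjusted *P* = 0.0458) was lost under 8 of 12 alternatives. *NIFK*, which binds the forkhead-associated domain of Ki-67, had a log2 fold change of 0.16 and did not pass.

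Among the other topoisomerases and their partners, 7 of 8 genes were tested, with 2 lower and 0 higher (median −0.20). With 13.3% of all genes tested lower, 2 of 7 is not read as a trait of this list. The lower genes were *RMI2* and *RMI1*, subunits of the complex that dissolves linked duplexes with topoisomerase IIIα, with log2 fold changes of −1.20 and −0.98. *TOP1*, the main single-strand topoisomerase, had 666.5 ± 5.16 CPM with DMSO and 720.4 ± 22.0 CPM with abemaciclib (SD, n = 3 in each group; adjusted *P* = 0.381 from edgeR). *TOP3A* had a log2 fold change of 0.19. Within the topoisomerase genes tested, *TOP2A* alone passed the threshold.

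All 12 genes on a list of other proliferation marks were lower (median −2.21). *TYMS* and *RRM2* passed the filter through their DMSO libraries alone, and with at least 10 counts required in every library 10 were lower. *TYMS*, thymidylate synthase, fell by 6.06 (286, 252 and 281 counts with DMSO, and 4, 2 and 7 with abemaciclib). *RRM2*, a subunit of ribonucleotide reductase, fell by 4.90 (212, 166 and 151 counts with DMSO, and 8, 10 and 1 with abemaciclib). *UBE2C*, the ubiquitin-conjugating enzyme of the anaphase-promoting complex, fell by 3.07. *MYBL2*, a transcription factor gene, *CCNB1*, cyclin B1, and *PCNA*, the replication clamp, had log2 fold changes of −2.32, −2.11 and −1.92. The replicative helicase genes *MCM6* and *MCM2* fell the least of the list, with −1.17 and −0.89. Marks in common use thus spanned a wide range of sizes in the same libraries, with *MKI67* (−6.71) beyond the largest of this list and *CDCA8* (−1.35) between *PCNA* and *MCM6*. The 3′ end of *TYMS* overlaps *ENOSF1* on the opposite strand, which had 61 to 107 counts per library and leaves its counts uncertain.

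**Figure D5:**
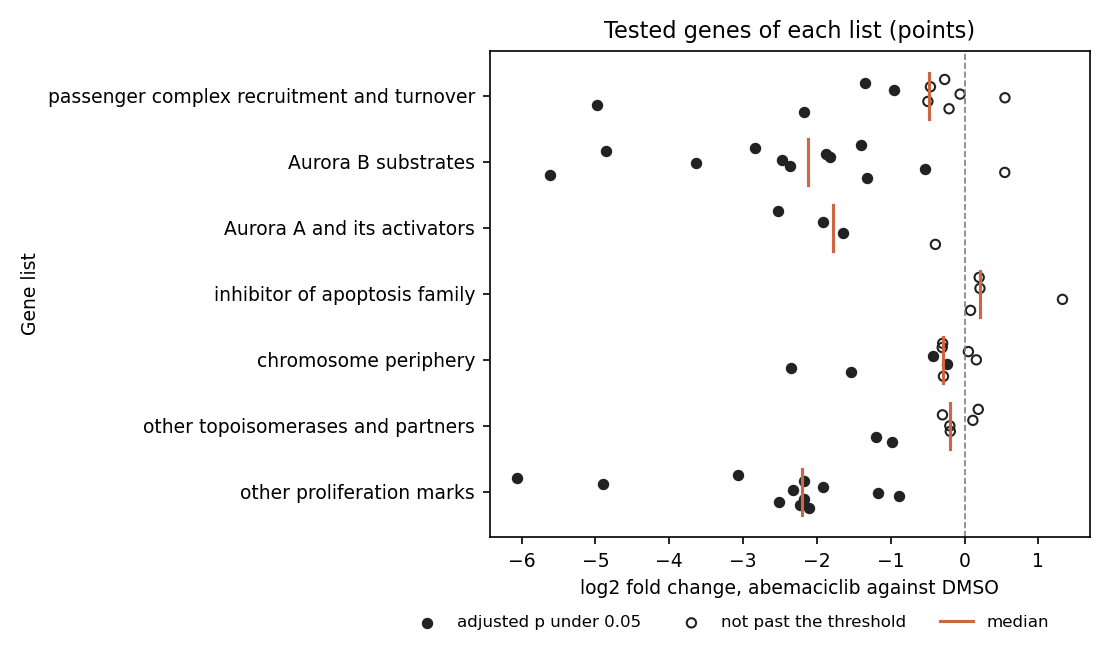
Log2 fold change, abemaciclib against DMSO, of the tested genes of each list (points, filled where the adjusted *P* is under 0.05) with list medians (lines). The median is −2.12 for Aurora B substrates and −2.21 for other proliferation marks, and 0.20 for the other inhibitor of apoptosis genes. The first 2 of these lists hold 4 and 2 genes that passed the filter through their DMSO libraries alone.

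The genes with the most similar profiles were sought among 9732 genes with a mean of at least 5 CPM, by the Euclidean distance over the 6 libraries between log2 CPM values centred on the DMSO mean. Libraries of the same treatment share most of this pattern, and a prior count of 2 shrinks the change of genes with few counts, so a small distance does not mean a change of equal size. The neighbours are a description. Closest to *MKI67* were *TYMS* (distance 1.80), *HMGB2* (2.42), a chromatin protein gene, and *NEURL1B* (2.55), a ubiquitin ligase gene. Closest to *TOP2A* were *CCNE2*, cyclin E2 (0.31), *NDC80* (0.39) and *HMMR*, a spindle assembly factor gene (0.62). The fitted log2 fold changes were −5.58 for *CCNE2*, which had 0.273 CPM with abemaciclib, −4.86 for *NDC80* and −4.13 for *HMMR*, beside −4.30 for *TOP2A*. Closest to the mean of the 4 passenger genes were *UBE2C* (0.14), *E2F2* (0.34) and *LMNB1*, lamin B1 (0.38). *NEURL1B* fell from 364.1 ± 32.1 to 8.14 ± 3.46 CPM and *LMNB1* from 231.8 ± 13.1 to 31.3 ± 3.19 CPM (SD, n = 3 in each group). Of these 9, *TYMS* and *CCNE2* share 3′ end bases with an antisense neighbour.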

How the data were processed

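RNA from 3 DMSO and 3 abemaciclib cultures was sequenced with a 3′ mRNA kit. Per the paper's methods and the submitters' processing notes, the authors trimmed single-end reads, aligned them to hg38 with STAR 2.7.5b and counted them per gene with featureCounts 2.0.1. The deposited values are raw counts with no normalization. Whether the counting used the strand is not given in the sources used here, and the sources name the kit both as forward and as reverse. Groups and replicate numbers were taken from the titles of the libraries. The sources describe the replicates as independent biological cultures.

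Symbols were matched by identifier for 60401 of 60656 genes. Coordinates and exons are from GENCODE on GRCh38, in a later release than the authors'. edgeR 4.0.16 under R 4.3.3 tested the counts with glmQLFit and glmQLFTest after filterByExpr and TMM scaling, with treatment as the sole term, over 10863 genes at a threshold of 0.05 on the Benjamini–Hochberg adjusted p. This takes the place of the study's DESeq2, which was an alternative (version 1.42.0). The standard error is the log2 fold change divided by the square root of F. Ratios within a library used counts plus 0.5. Intervals and limits cover counting error only, as no molecular identifiers are described. The scripts were tested on simulated data.

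The 7 genes and all lists were chosen with earlier results of these data known, and no list was given a set test. Any gene of a list could be named, and the 2 strongest calls of a list in each direction were always named. Pairs of replicates differed by more than sampling noise (chi-square per degree of freedom 2.84 to 7.29). Alternatives were DESeq2, its size factors in edgeR, total counts only, no filter, at least 10 counts in every library, a replicate block and each library left out.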

Additional observations from a re-analysis of the deposited data

How the results depend on the processing

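The 6 falls among the 7 genes held under every alternative run in which the gene was tested, and *TOP2B* did not pass under any. With at least 10 counts required in every library *AURKB* was not tested, which left 5 lower. The log2 fold change ranged over the alternatives from −7.03 to −6.58 for *AURKB*, −7.15 to −6.45 for *MKI67*, −4.33 to −4.27 for *TOP2A*, −3.48 to −3.18 for *BIRC5*, −2.04 to −1.56 for *INCENP*, −1.43 to −1.25 for *CDCA8* and −0.31 to −0.13 for *TOP2B*. Over all genes, 1354 were higher and 1442 lower, against 1069 and 1166 with DESeq2. Samples with the same replicate number did not deviate together (correlations −0.14, 0.00 and −0.21), so the main fit did not pair them. Whether the cultures were set up in pairs is not shown by these values. With the replicate block 1139 genes were higher and 1280 lower, and 6 of the 7 genes were lower as before.

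Alternatives gave 299 counts and ratios for the comparisons, and 296 of them kept about their number or, for the ratios, their direction. The ratios had no call that could be kept or lost. With at least 10 counts in every library 7 Aurora B substrate genes were lower. With each library left out, 0 to 1 of these genes were higher (*CHMP4C*) and 0 to 1 inhibitor of apoptosis genes were higher (*BIRC3*, without DMSO replicate 1). Of 637 values of single genes, 9 were weaker and 2 stronger. With 3 libraries a group, no ratio could reach a permutation *P* under 0.1, and *AURKB* with abemaciclib rests on 7 counts.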
